A study of Mus musculus with 12 samples.

Results

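Regulatory (Treg) and effector (Teff) T cells lacking Blimp1 were compared on 6 of the 12 arrays of the study, those titled as conditional knockout (CKO). All 3 CKO Treg arrays and all 3 CKO Teff arrays entered the comparison, and 12119 genes were tested on them. Naive CD44-low CD4+ T cells on a C57BL/6 background, aged 8 to 12 weeks by the labels and carrying a Foxp3-GFP reporter, were the starting population. Blimp1-deficient cells and allotype-marked Blimp1-sufficient (Ctrl) cells had been put together in equal numbers into Rag1-/- hosts, which lack T and B cells and keep their innate cells. After 6 to 8 weeks CD4+Foxp3+ cells (Treg) and CD4+Foxp3- cells (Teff) of each genotype were sorted from pooled spleen, mesenteric lymph node and large intestine lamina propria. All groups were then restimulated for 4 hours with PMA and ionomycin, which activate protein kinase C and raise calcium in the cell. The labels do not name the Cre line that removes Blimp1. Since all cells began as naive cells, the Treg arrays are titled pTreg, for Treg cells that arise in the periphery.

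Blimp1 is a zinc-finger repressor, encoded by Prdm1, that T cells make after activation and that marks effector forms of both Treg and conventional T cells. Foxp3 is the factor that defines Treg cells: it holds down Il2 and other cytokine genes and goes with high surface Il2ra, Ctla4 and Tnfrsf18. In the gut, effector Treg cells are a well-known source of Il10, and Blimp1 is known to be needed for much of that Il10.

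3 windows of 250 bases ending just before a RefSeq gene start are shown, because the Treg to Teff difference of the first of these genes is set by the sort, that of the next passed the test in both genotypes, and that of the last differed between genotypes. Capitals in the Foxp3 and Il2 windows mark the core of NFAT sites (GGAAA, or TTTCC where it lies on the other strand), NFAT being the factor that ionomycin brings into the nucleus. Capitals in the Gpr83 window mark the core letters of Blimp1 sites (GAAAG). The Il2 window also held 1 match to that core, left in lower case, and the Foxp3 window 0. RefSeq gives them on GRCm38.p6 at chrX:7579426-7579675 on the plus strand for Foxp3, which has 2 windows listed, chr3:37125955-37126204 on the minus strand for Il2 and chr9:14859960-14860209 on the plus strand for Gpr83.
Foxp3: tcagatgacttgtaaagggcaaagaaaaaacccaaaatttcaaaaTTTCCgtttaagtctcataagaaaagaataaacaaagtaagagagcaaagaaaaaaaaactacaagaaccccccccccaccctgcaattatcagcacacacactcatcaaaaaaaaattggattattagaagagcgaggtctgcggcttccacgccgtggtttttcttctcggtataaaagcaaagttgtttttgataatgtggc
Il2: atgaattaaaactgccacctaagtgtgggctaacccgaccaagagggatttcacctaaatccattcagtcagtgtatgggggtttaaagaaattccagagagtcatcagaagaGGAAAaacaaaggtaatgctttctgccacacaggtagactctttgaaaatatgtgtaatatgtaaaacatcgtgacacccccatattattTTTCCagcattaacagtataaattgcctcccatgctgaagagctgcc
Gpr83: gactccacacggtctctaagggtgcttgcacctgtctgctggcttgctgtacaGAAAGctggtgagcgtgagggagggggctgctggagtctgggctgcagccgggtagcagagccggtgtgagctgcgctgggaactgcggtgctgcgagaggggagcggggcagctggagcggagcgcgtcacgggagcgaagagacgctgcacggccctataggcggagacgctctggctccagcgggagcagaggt
The Il2 window held 2 matches to the NFAT core and the Foxp3 window 1, while GGAAA occurs on either strand in 55.6% of the 32851 listed windows of this length. GAAAG, which shares letters with GGAAA where the letters GGAAAG stand, occurs in 51.5% of them. Of 17 genes higher in CKO Treg cells that had a listed window, 8 (47.1%) held the NFAT core in at least 1 window. Of 17 such genes lower in CKO Treg cells, 11 (64.7%) did. These shares are counted per gene, unlike the 55.6% and 51.5%, which are per window. The Blimp1 core was in 7 (41.2%) of the former and 9 (52.9%) of the latter. A match is a description of the letters and not of a bound site.

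The deposited values were log2 signals of Illumina probes, with array medians of 4.66 to 4.68 and correlations between arrays of 0.943 to 0.988. The targeted gene did not check the genotype labels. On the probe used for Prdm1 the log2 values were 7.83, 9.0 and 7.94 on the arrays labelled CKO Teff and 9.16, 8.47 and 9.48 on those labelled CKO Treg, against 4.64, 5.39 and 4.73 on Ctrl Teff and 5.19, 6.07 and 6.03 on Ctrl Treg. The signal was thus higher on every array labelled CKO than on any labelled Ctrl. Where this probe lies relative to the deleted part is not stated in the labels, and the other Prdm1 probe lay between 4.27 and 4.56 on all 12 arrays, below the array medians. Directions between genotypes therefore rest on the labels. Between Treg and Teff cells Prdm1 differed by 0.78 ± 0.38 (log2, SE, n = 3 arrays a group) in the arrays labelled CKO, with an adjusted p of 0.52 in limma.

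Markers checked the sort in part. Cd3e, a chain of the T cell receptor complex, lay between 10.8 and 11.7 on the 6 CKO arrays, with no separation of Treg from Teff. Cd4 was low, at 4.95 to 6.13, and Cd8b1 stood at 8.45 to 9.90 on the same arrays, while Cd8a did not pass the filter on low signal. These 3 genes were looked up as a check of the labels, after their values could be seen. Genes of basophils and mast cells stood apart: the mean log2 value of 9 of them was 9.60 on CKO Teff 1 and 9.12 on CKO Teff 2, against 5.65 on CKO Teff 3 and 5.60, 5.19 and 5.84 on the CKO Treg arrays. Mcpt8, a basophil protease, read 10.85, 10.18 and 5.12 on the CKO Teff arrays and 4.62 to 5.38 on the CKO Treg arrays. For 18 neutrophil genes the means were 8.95, 9.22 and 7.03 on CKO Teff and 7.80, 5.82 and 8.10 on CKO Treg. For 9 genes of CD8 and NK cells they were 7.04, 8.36 and 5.98 on CKO Teff and 5.12, 5.39 and 5.50 on CKO Treg. For 15 genes of monocytes and macrophages the means were 6.84, 7.26 and 6.15 on CKO Teff and 6.22, 5.66 and 6.42 on CKO Treg, which overlap. Means of 5 B and plasma cell genes stayed near the array median, at 4.59 to 4.75. For 11 genes of antigen-presenting cells the means were 7.09, 7.39 and 6.22 on CKO Teff and 6.70, 7.26 and 6.43 on CKO Treg. Neutrophil genes were also high on some Ctrl arrays, with means of 7.84, 9.72 and 6.11 on Ctrl Teff and 8.80, 5.99 and 8.69 on Ctrl Treg. CKO Teff 1 and 2 thus stood above the other CKO arrays for basophil, neutrophil, and CD8 and NK genes. Transcripts of other cell types were not confined to these 2 arrays. Where leaving CKO Teff 1 and 2 out moved a Treg to Teff difference given below by over 1.5 times, the value without them stands beside it. Differences given as a range are excepted. In bulk RNA fewer cells of a type and less RNA per cell cannot be told apart. The labels do not say that the 3 arrays of a group came from separate hosts, so the p-values given cover only how far these samples spread, which may be technical.

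**Figure D1:**
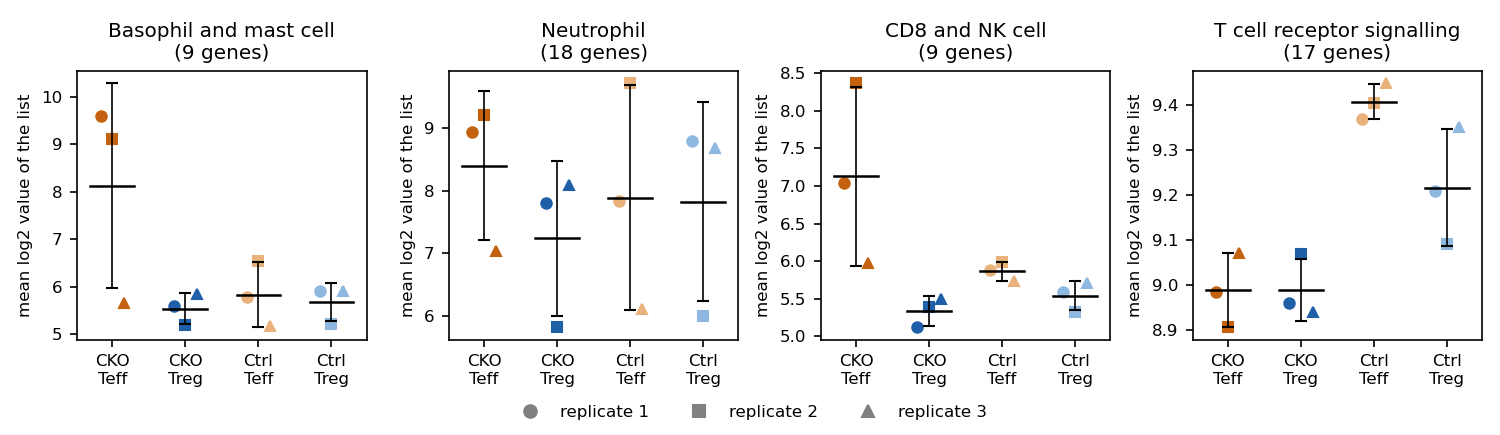
Mean log2 value of the genes of 3 other cell types and of T cell receptor signalling on each array, by group, with the group mean (line) and SD (bar, n = 3). CKO Teff 1 and 2 sit above the other CKO arrays for basophil and mast cell genes, at 9.60 and 9.12, while receptor signalling genes lie between 8.91 and 9.07 on all 6 CKO arrays.

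In the CKO arrays 43 genes passed an adjusted p of 0.05 between Treg and Teff cells, 0.355% of those tested. Of these, 21 were higher in Treg cells (0.173%) and 22 lower (0.182%), and 37 differed at least 2-fold. The values of Treg and Teff arrays did not overlap for any of the 43, whereas that held for 13.7% of all genes tested. An unadjusted p under 0.05 was reached by 6.21% of genes in the higher direction and 4.55% in the lower. The count rested on few arrays: it was 16 when CKO Treg 1 was omitted, 20 when CKO Teff 1 was, 23 when CKO Teff 2, CKO Treg 2 or CKO Treg 3 was, and 259 when CKO Teff 3 was. Without CKO Teff 1 and 2 together, with the remaining Teff array assumed to vary like the other groups, limma called 0 genes, 687 had an unadjusted p under 0.05, and all 43 kept their sign. 13 genes were called under each of the 6 omissions of 1 array: Foxp3, Syp, Pigz, Tlr1, Nid2, Sh3bgrl and Psen2 among the higher, and Cx3cl1, Tnfsf4, Ehd3, Gzmm, Esm1 and Serpinb6b among the lower. Each of the other 30 missed the threshold under at least 1 of these omissions, with its sign kept.

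**Figure D2:**
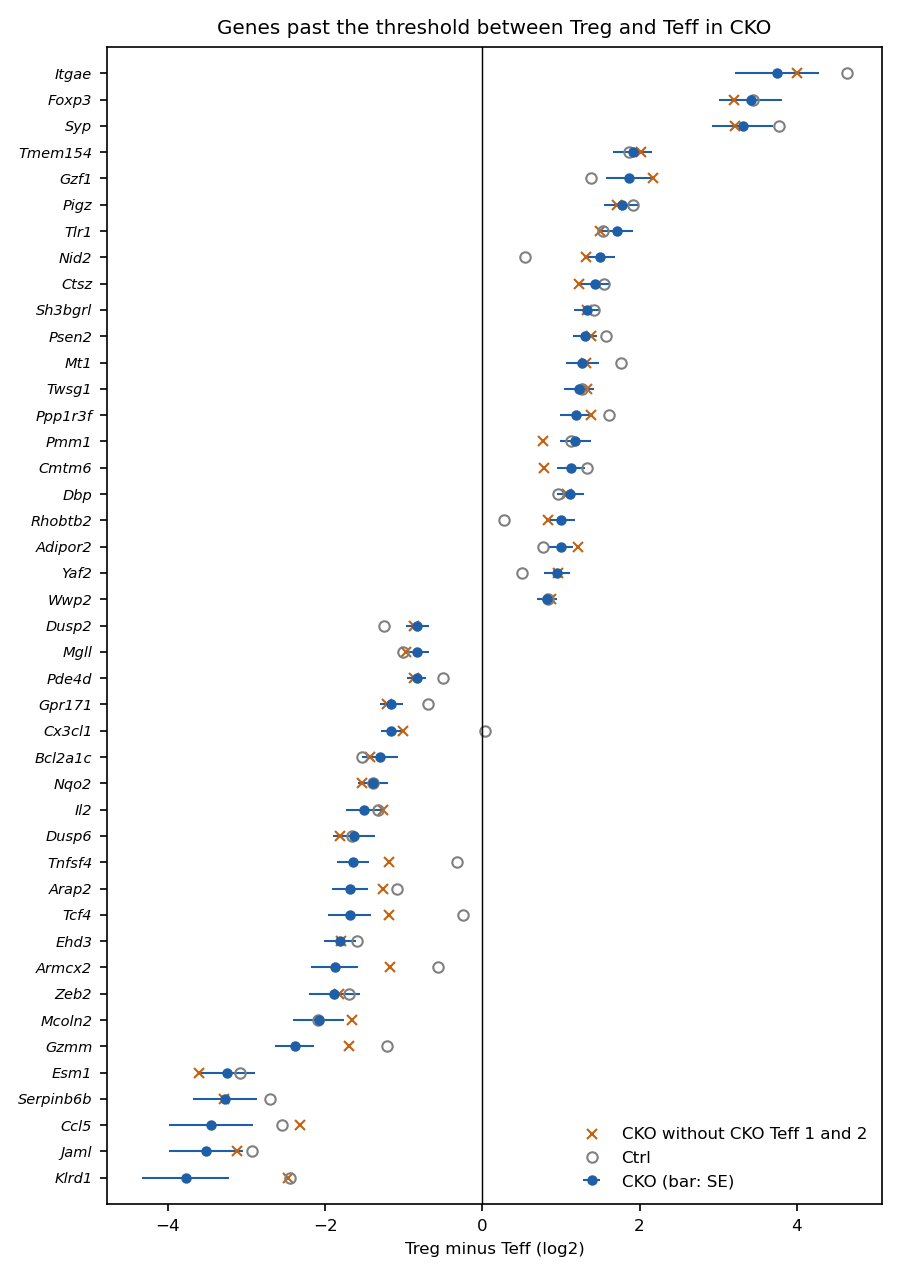
Treg minus Teff (log2) of the 43 genes past the threshold in CKO: filled points with SE bars are the CKO values, crosses the CKO values without CKO Teff 1 and 2, open circles the Ctrl values. Every cross lies on the same side of 0 as its filled point, and the open circle of Cx3cl1 alone (0.04) lies on the other side.

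Foxp3, whose reporter was the sort gate, led the higher genes with Itgae and Syp. Foxp3 read 4.48, 4.57 and 4.85 on the CKO Teff arrays and 8.80, 7.50 and 7.85 on the CKO Treg arrays. Teff cells were at the array medians and each Treg array was well above them. The difference was 3.41 ± 0.40 (log2, SE, n = 3), or 10.7-fold, with an adjusted p of 0.00799, and checks the Treg and Teff labels. This rests on 1 of 4 Foxp3 probes that passed the filter: the other 3 had differences of -0.92, -0.15 and -0.08, and the mean of a gene's probes gave 0.56 with an adjusted p of 0.419.

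Itgae, the alpha chain of the integrin that binds E-cadherin on gut epithelium, also rose in Treg cells. It read 6.70, 9.04 and 7.48 on CKO Teff and 11.64, 11.58 and 11.25 on CKO Treg, so the Treg arrays were close together and the Teff arrays spread widely. The difference was 3.75 ± 0.53 (SE, n = 3), 13.5-fold, with an adjusted p of 0.0156. It missed the threshold without CKO Treg 1 (0.0924), CKO Treg 2 (0.0743), CKO Treg 3 (0.0576) or CKO Teff 1 (0.0527), although its size stayed between 3.23 and 4.40 when any 1 array was omitted.

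2 of the genes that rose with Foxp3 are its neighbours on the X chromosome. Syp, which encodes the synaptic vesicle protein synaptophysin, read 5.04, 4.74 and 5.03 on CKO Teff and 8.22, 8.19 and 8.33 on CKO Treg. That was 3.31 ± 0.39, 9.93-fold, at an adjusted p of 0.00799, with both groups tight. Ppp1r3f, a regulatory subunit of protein phosphatase 1, read 4.99, 5.01 and 4.71 on CKO Teff and 6.25, 5.75 and 6.30 on CKO Treg. Its difference of 1.19 ± 0.21 had an adjusted p of 0.0445, and it was lost without CKO Treg 1 (0.162), CKO Treg 3 (0.144), CKO Teff 1 (0.124) or CKO Teff 2 (0.109). Of the 20 protein-coding genes nearest to Foxp3, 10 on each side in RefSeq order, 8 were tested. Syp and Ppp1r3f were called higher and 0 lower, in CKO and in Ctrl alike. Over all genes 0.173% were called higher in CKO and 0.602% in Ctrl. Plp2, Gpkow, Wdr45, Ccdc120, Akap4 and Shroom4, the other 6 tested, had differences between -0.20 and 0.16 in CKO. This neighbourhood was looked up after the values of Syp and Ppp1r3f had been seen.

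The rest of the higher genes were mostly not part of the lists drawn up for Treg cells. Tmem154, a membrane protein gene, read 5.09, 5.14 and 4.96 on CKO Teff and 7.22, 6.32 and 7.38 on CKO Treg, a difference of 1.91 ± 0.24 (adjusted p = 0.009). Pigz, an enzyme of the glycosylphosphatidylinositol anchor, stood 1.77 ± 0.22 higher in Treg cells, and Tlr1, the partner of Tlr2 in sensing bacterial lipopeptide, 1.72 ± 0.20 higher. Nid2, a basement membrane protein, rose by 1.50 ± 0.19, from 4.43 to 4.79 on CKO Teff to 5.97 to 6.32 on CKO Treg. These genes were near the array medians in Teff cells, so their differences run from background upward. Others rose from clear signal: Mt1, a zinc-binding metallothionein, from 11.97 to 12.15 up to 13.01 to 13.52 (1.27 ± 0.21), and Twsg1, a secreted modulator of BMP signalling, from 9.20 to 9.86 up to 10.44 to 10.93 (1.23 ± 0.19). Ctsz, a lysosomal protease, rose by 1.43 ± 0.20, and Psen2, a catalytic subunit of gamma-secretase, by 1.31 ± 0.15. Gzf1 (1.87), Sh3bgrl (1.33) and Pmm1 (1.18, and 0.77 without CKO Teff 1 and 2), the last an enzyme of mannose metabolism, rose too. The smallest rises were those of Wwp2 (0.82) and Yaf2 (0.95), outside the genes chosen for size and named to give the lower end.

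Among the genes lower in Treg cells, several belong to cytotoxic cells. Klrd1, the CD94 chain of the NK lectin receptors, read 8.80, 10.26 and 7.57 on CKO Teff and 4.92, 5.30 and 5.09 on CKO Treg. It was a little above the array medians in Treg cells and high on all Teff arrays, a difference of -3.77 ± 0.55 (13.7-fold lower, adjusted p = 0.02). Ccl5, a chemokine of cytotoxic and memory T cells, read 12.59, 13.54 and 11.36 on CKO Teff and 9.0, 8.87 and 9.26 on CKO Treg (-3.45 ± 0.54). Gzmm, granzyme M, read 8.32, 8.58 and 7.41 on CKO Teff and 5.69, 5.85 and 5.61 on CKO Treg (-2.39 ± 0.24, adjusted p = 0.00799). Klrd1 is itself a member of the list of CD8 and NK genes described above, so its fall is part of that list. The falls of Ccl5 and Gzmm move with those genes, whose part in the result was not tested. Without CKO Teff 1 and 2 the differences were -2.47 for Klrd1, -2.32 for Ccl5 and -1.70 for Gzmm. Klrd1 held its call without CKO Teff 2 or CKO Teff 3 only, and Ccl5 without CKO Teff 3 only, while Gzmm held it in all 6 omissions.

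3 other lower genes, Esm1, Serpinb6b and Jaml, differed by more than 3 log2 units both with all arrays and without CKO Teff 1 and 2. Esm1, a secreted proteoglycan best known from endothelium, read 9.88, 9.29 and 10.12 on CKO Teff and 6.92, 6.22 and 6.42 on CKO Treg. It fell by 3.24 ± 0.36 in Treg cells, and the difference without CKO Teff 1 and 2 was -3.60. Serpinb6b, an inhibitor of serine proteases, read 9.48, 9.75 and 9.64 on CKO Teff and 5.58, 6.27 and 7.21 on CKO Treg (-3.27 ± 0.41, and -3.29 without those arrays). Jaml, an adhesion molecule that engages CAR on epithelium, read 10.50, 11.62 and 10.46 on CKO Teff and 7.22, 7.08 and 7.73 on CKO Treg (-3.52 ± 0.47, and -3.11 without them). In all 3 genes the Treg arrays lay at least 2 log2 units below the lowest Teff array. Jaml lost its call without CKO Treg 1 (adjusted p = 0.069) or CKO Treg 2 (0.0603). The lower set also held genes of other kinds: Dusp6, a phosphatase that switches off ERK, fell by 1.63 ± 0.27, Ehd3, an endosome protein, by 1.81 ± 0.20, and Mcoln2, a lysosomal channel, by 2.08 ± 0.33. Zeb2 (-1.88), a transcriptional repressor active in terminal effector cells, Tcf4 (-1.69), Arap2 (-1.68) and Armcx2 (-1.88) were also lower. Some of these were smaller without CKO Teff 1 and 2, at -1.17 for Armcx2, -1.19 for Tcf4, -1.26 for Arap2 and -1.66 for Mcoln2. In Ctrl Armcx2, Tcf4 and Arap2 differed by -0.56, -0.24 and -1.08 and were not called.

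Il2, Tnfsf4 and Cx3cl1 were further ligand genes called lower, besides Ccl5. Il2 read 14.59, 14.82 and 14.33 on CKO Teff and 13.07, 13.39 and 12.75 on CKO Treg. It was thus among the brightest signals in both groups and 1.51 ± 0.23 lower in Treg cells (2.85-fold, adjusted p = 0.0272). The call was lost without CKO Treg 1 (0.102), CKO Treg 3 (0.097), CKO Teff 1 (0.0955) or CKO Teff 2 (0.101). Tnfsf4, the OX40 ligand, read 6.38, 6.64 and 5.82 on CKO Teff and 4.69, 4.69 and 4.50 on CKO Treg (-1.65 ± 0.20), at the array medians in Treg cells. Cx3cl1, the membrane chemokine fractalkine and outside the genes chosen for size, is named because it alone of the 22 was not also lower in Ctrl Treg cells. It read 5.56, 5.93 and 5.51 on CKO Teff, 4.43, 4.49 and 4.60 on CKO Treg, 4.54 to 4.57 on Ctrl Teff and 4.49 to 4.71 on Ctrl Treg. The CKO Teff arrays stood alone above the medians, and the test of the difference between genotypes gave an adjusted p of 0.15.

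Of the Treg surface molecules, Itgae alone passed the test in CKO. Of 24 tested genes of the list, 18 were higher and 6 lower in CKO Treg cells, with a median difference of 0.61 against 0.03 over all genes, where 55.7% were higher. The median was 0.73 without CKO Teff 1 and 2, with 20 higher. Besides the 1 called, others were short of the threshold: 12 in all, Itgae included, reached an unadjusted p under 0.05 in the higher direction. Over all genes 6.21% did so, and 0.173% were called higher. In Ctrl the median was 1.18, 22 of 24 were higher and 5 were called, 1.01% being called among all genes there. Nt5e (CD73), which makes adenosine, read 7.05, 7.51 and 8.39 on CKO Teff and 10.01, 9.38 and 9.91 on CKO Treg (2.12 ± 0.39, adjusted p = 0.0513, and 1.38 without CKO Teff 1 and 2). Cd81, a tetraspanin, read 8.52, 8.02 and 8.42 against 10.48, 11.07 and 9.74 (2.11 ± 0.41, adjusted p = 0.0623). Ctla4, the inhibitory receptor for CD80 and CD86, read 9.54, 10.21 and 7.40 against 11.79, 11.89 and 11.34 (2.62 ± 0.63, adjusted p = 0.12, and 4.27 without CKO Teff 1 and 2). In these 3 genes every Treg array was above every Teff array, and none passed the threshold. Ccr8, a receptor of tissue Treg cells, differed by 2.93 ± 0.71 (adjusted p = 0.124), and Il2ra (CD25) by 1.23 ± 0.32 (adjusted p = 0.143), from 8.10 to 8.18 on CKO Teff to 9.14 to 9.79 on CKO Treg. The 95% intervals of the CKO minus Ctrl difference, here and below from the fit without pairs, were -2.65 to 1.82 for Ccr8, -1.28 to 0.69 for Il2ra and -1.39 to 2.56 for Ctla4. That fit therefore did not resolve differences of these sizes between genotypes. A fit with same-numbered CKO and Ctrl arrays as pairs can be narrower. The SE of the difference was 0.75 without and 0.33 with pairs for Itgae, and 0.31 in both for Pigz.

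**Figure D3:**
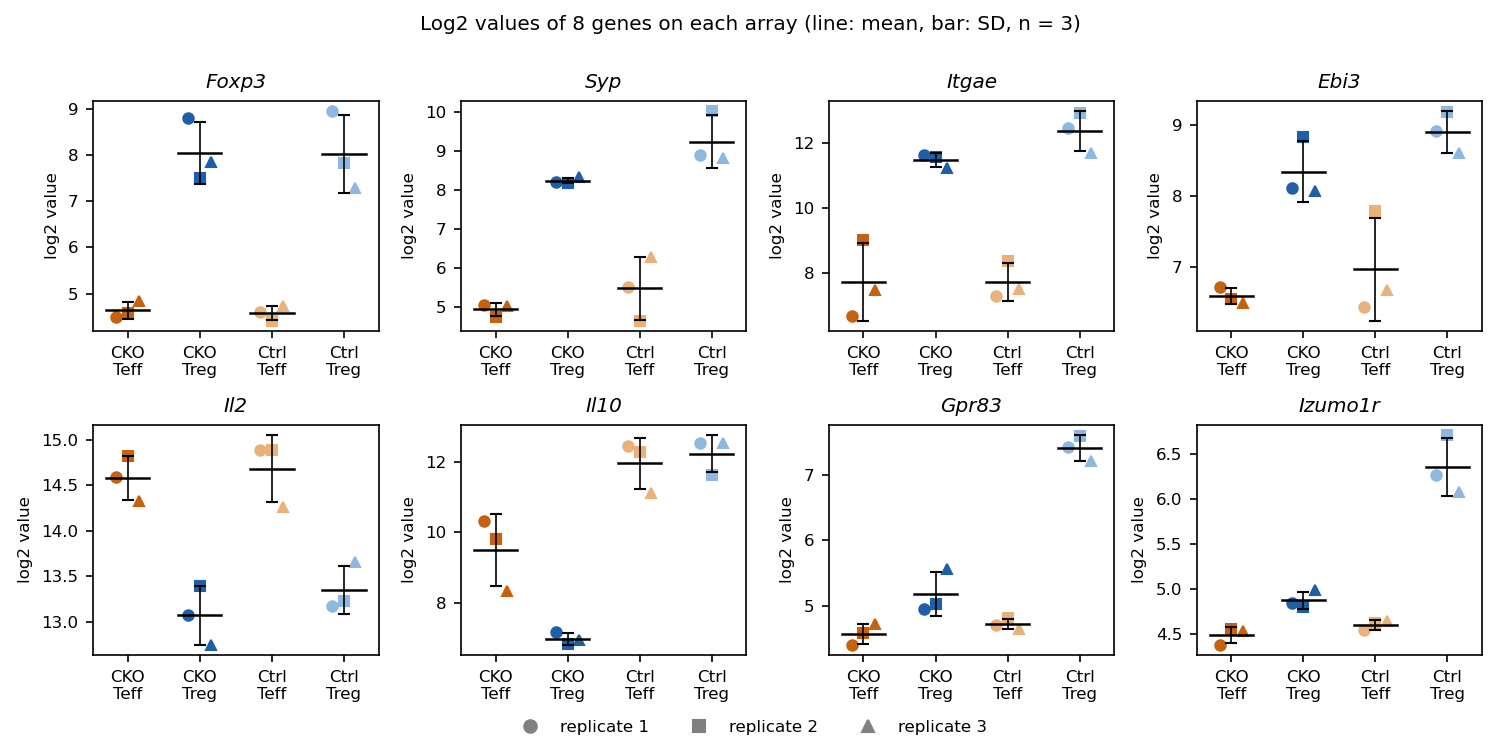
Log2 values of 8 genes on each of the 12 arrays by group, with the mean (line) and SD (bar, n = 3). Foxp3, Syp, Itgae and Il2 separate Treg from Teff cells in both genotypes, while Gpr83 and Izumo1r are high on the Ctrl Treg arrays only and Il10 is lowest on the CKO Treg arrays.

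Gpr83 was the 1 Treg surface gene that passed the test of the difference between genotypes. This G protein-coupled receptor gene, long used as a Treg marker, read 4.41, 4.59 and 4.72 on CKO Teff, 4.96, 5.03 and 5.57 on CKO Treg, 4.72, 4.81 and 4.65 on Ctrl Teff and 7.43, 7.59 and 7.20 on Ctrl Treg. CKO Treg cells were just above the CKO Teff arrays and far below the Ctrl Treg arrays. The Treg to Teff difference was 0.61 ± 0.17 (adjusted p = 0.181) in CKO and 2.68 ± 0.17 in Ctrl, and the difference between these was -2.07 (95% interval -2.61 to -1.53, adjusted p = 0.0308). Izumo1r, the folate receptor 4 gene of Treg cells and the gene next to Gpr83, read 4.38, 4.55 and 4.53 on CKO Teff and 4.84, 4.80 and 4.98 on CKO Treg, against 6.08 to 6.70 on Ctrl Treg. Its difference between genotypes was -1.36 (95% interval -1.83 to -0.89), with an adjusted p of 0.15. Of the 20 nearest protein-coding neighbours of Gpr83, 16 were tested, 0 were called in CKO and 1, Izumo1r, was called higher in Ctrl. Over all genes 0.355% were called in CKO and 0.602% were called higher in Ctrl. Smco4 (1.27, and 0.47 without CKO Teff 1 and 2) and Amotl1 (1.12) had the largest differences in CKO among the 16, with unadjusted p of 0.00452 and 0.00487. Tnfrsf18 (GITR) differed by 0.61 ± 0.20 in CKO and 1.50 ± 0.20 in Ctrl, and the adjusted p of the difference was 1.

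2 genes passed the test of the difference between the contrasts, 0.0165% of those tested, while 3.48% had an unadjusted p under 0.05. Besides Gpr83 this was Ky, a protein of muscle structure. Ky read 4.25 to 4.52 on all 6 CKO arrays, 4.62, 4.45 and 4.38 on Ctrl Teff and 6.10, 6.07 and 5.81 on Ctrl Treg. It was thus at or below the array medians everywhere except in Ctrl Treg cells. Ky passed the filter, which asks for 3 arrays above the array median, only through the Ctrl Treg arrays, so the filter favoured this pattern. The difference was -1.54 (95% interval -1.92 to -1.15, adjusted p = 0.0308). Both genes lost the call under most of the 12 omissions of 1 array: Gpr83 held without CKO Teff 3, CKO Treg 3 or Ctrl Treg 3, and Ky without CKO Teff 3 or Ctrl Treg 3, with adjusted p otherwise between 0.072 and 0.16. CKO and Ctrl arrays of one number deviated together within each cell type. With these pairs as a block 5 genes passed, 0.0413%: Ncmap (-2.79), Il10 (-2.78), Ecm1 (-2.00), Ky, and Pdlim1 (1.69), with Gpr83 then at 0.0556. Ncmap, a myelin protein gene, read 4.45 to 4.67 on CKO Teff, 5.56, 4.86 and 4.94 on CKO Treg and 7.35 to 8.74 on Ctrl Treg.

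Pdzk1ip1, a small membrane protein gene, was among the 5 genes with the largest rises in Ctrl and was not called in CKO. It read 8.27, 7.64 and 5.98 on CKO Teff and 7.18, 8.36 and 7.44 on CKO Treg, against 5.71, 4.70 and 5.05 on Ctrl Teff and 8.18, 9.59 and 8.54 on Ctrl Treg. Treg and Teff arrays overlapped in CKO and lay far apart in Ctrl, with CKO Teff 1 and 2 close to the Treg values. The difference was 0.36 ± 0.58 in CKO (adjusted p = 0.893), 1.68 without CKO Teff 1 and 2, and 3.62 ± 0.58 in Ctrl (adjusted p = 0.0159). CKO minus Ctrl was -3.26, with an adjusted p of 1 without pairs and 0.0569 with pairs. Crtam and Cd160, receptors of cytotoxic and NK cells, were among the 5 largest falls in Ctrl (-2.99 and -2.96). In CKO Crtam and Cd160 differed by -2.20 ± 0.56 and -1.48 ± 0.39 (adjusted p of 0.137 and 0.159), with -1.43 for Crtam without CKO Teff 1 and 2. The 5 smallest p-values of the difference in the positive direction were those of Hif1a, Cep85, Cdon, Mast4 and Slc25a47, none past the threshold with or without pairs. Mast4, a kinase gene, read 5.82, 5.68 and 6.02 on CKO Teff and 7.92, 7.72 and 6.58 on CKO Treg (1.57 ± 0.30, adjusted p = 0.0603), against -0.16 in Ctrl. Cdon, a cell surface coreceptor of hedgehog signalling, differed by -0.08 in CKO (-0.20 without CKO Teff 1 and 2) and by -1.52 in Ctrl, where it was called. Cep85 differed by 0.22 in CKO (0.36 without those arrays) and -0.64 in Ctrl, and Slc25a47 by 0.19 and -0.64.

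Il10 signal was lower in Treg than in Teff cells on the CKO arrays, short of the threshold. It read 10.31, 9.81 and 8.35 on CKO Teff and 7.17, 6.85 and 6.94 on CKO Treg, so that every Treg array was below every Teff array. The difference was -2.51 ± 0.49 with an adjusted p of 0.0623, and -1.36 without CKO Teff 1 and 2. On Ctrl arrays Il10 read 12.46, 12.27 and 11.12 in Teff and 12.53, 11.62 and 12.52 in Treg cells, a difference of 0.27, above all CKO values. The basophil genes were high on the same 2 CKO Teff arrays on which Il10 was highest, and their part in the result was not tested. Of the other 17 tested genes of Treg effector molecules, Ebi3, a subunit of IL-35 and IL-27, read 6.72, 6.56 and 6.50 on CKO Teff and 8.11, 8.83 and 8.07 on CKO Treg (1.74 ± 0.33, adjusted p = 0.0535). Ctrl gave 1.92 for it, and the interval of the difference was -1.21 to 0.85. Dusp4 (0.86 ± 0.18) and Capg (1.04 ± 0.28) were also above their Teff values on every CKO Treg array, at adjusted p of 0.0701 and 0.159. Rgs1, a brake on chemokine receptor signalling, was below them (-1.58 ± 0.29, adjusted p = 0.0513). In this list of 18, 10 were higher and 8 lower with a median of 0.33, and limma called 0, with 5 higher and 3 lower at an unadjusted p under 0.05. Over all genes 6.21% were higher and 4.55% lower at that p, and 0.355% were called.

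Transcription factors of Treg cells lay on both sides of 0. Of 23 tested, 13 were higher and 10 lower in CKO Treg cells, with a median of 0.10, and Foxp3 alone was called. At an unadjusted p under 0.05 stood 5 higher and 3 lower, and 10 of the 23 did not overlap. Over all genes 55.7% were higher, 0.355% were called, 10.8% had such a p and 13.7% did not overlap. Leaving out CKO Teff 1 and 2 gave a median of 0.25 with 17 higher. Ikzf2 (Helios) read 6.86, 6.20 and 5.53 on CKO Teff and 7.66, 8.97 and 7.62 on CKO Treg, a difference of 1.88 ± 0.45 (adjusted p = 0.114), against 3.14 in Ctrl, where it passed. The interval of the difference, -2.65 to 0.14, held 0, while with pairs its unadjusted p was 0.0141 and its adjusted p 0.281. Gata3, which effector Treg cells in the gut express, differed by 1.57 ± 0.37 (adjusted p = 0.114), Hopx by 1.11 ± 0.25 (adjusted p = 0.106) and Batf by 0.90 ± 0.22 (adjusted p = 0.133). Each of these 4 was higher on all 3 Treg arrays than on any Teff array. Id2, an inhibitor of E proteins, lay lower (-1.04 ± 0.22, adjusted p = 0.0752), as did Rel (-1.12 ± 0.35, adjusted p = 0.236, and -0.51 without CKO Teff 1 and 2).

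Among genes known to be held down by Foxp3, Il2 alone was called. All 11 tested had lower means in CKO Treg cells, with a median of -0.71 against 0.03 over all genes. 5 of them had an unadjusted p under 0.05, where 4.55% of all genes had one in the lower direction and 0.182% were called lower. Tnfsf8 (CD30 ligand) differed by -1.86 ± 0.53 and Satb1, a chromatin organiser, by -1.11 ± 0.39 (-0.44 without CKO Teff 1 and 2), neither past the threshold. Without CKO Teff 1 and 2 the median was -0.40 and 10 of 11 were lower. In Ctrl the median was -0.49 and 8 of 11 were lower.

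Of the listed cytokine and chemokine genes, Tnfsf4, Il2 and Ccl5 were called lower in CKO Treg cells. Cx3cl1, a chemokine described above, was called lower as well. Of 34 tested in the list, 32 were lower and 2 higher in CKO Treg cells, with a median of -1.72, against -1.29 in Ctrl. Besides the 3 called in the list, others had lower values short of the threshold: 22 in all had an unadjusted p under 0.05, all lower. Over all genes 0.182% were called lower, 4.55% had an unadjusted p under 0.05 in the lower direction, and 55.7% were higher. Without CKO Teff 1 and 2 the median was -0.82 and 30 of 34 were lower. The list's members differed in how they sat on the Teff arrays. Il17a, the Th17 cytokine, read 10.56, 10.78 and 10.73 on CKO Teff and 8.53, 8.90 and 8.75 on CKO Treg (-1.97 ± 0.37, adjusted p = 0.0532), with tight groups. Il17f read 12.51, 12.32 and 12.26 against 10.82, 9.84 and 9.16 (-2.42 ± 0.49, adjusted p = 0.067). In Ctrl these 2 genes differed by -3.63 and -4.39, and the Ctrl Treg arrays were the lowest, while the intervals of the difference, 0.51 to 2.81 and 0.44 to 3.50, lay above 0 with adjusted p of 1. Csf2 (GM-CSF) read 12.63, 14.10 and 13.54 on CKO Teff and 9.69, 11.20 and 10.47 on CKO Treg (-2.97 ± 0.62, adjusted p = 0.0752), high on all 3 Teff arrays.

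**Figure D4:**
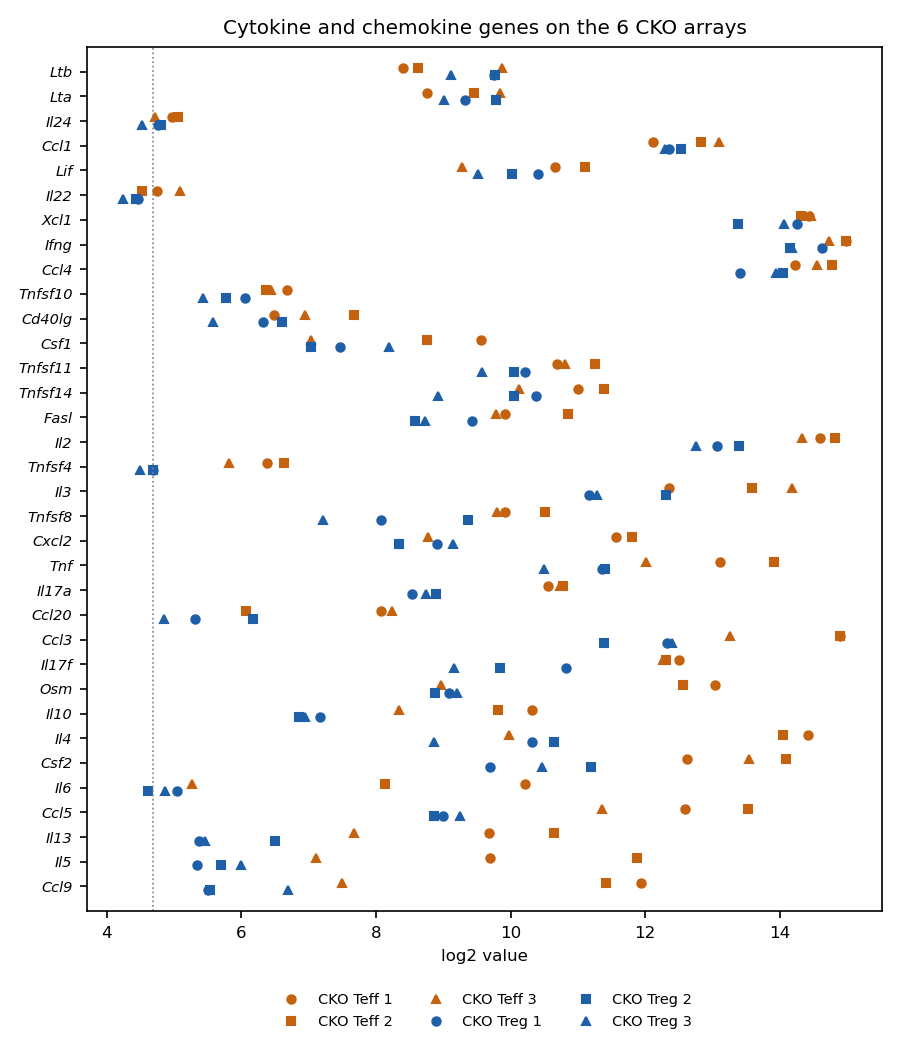
Log2 values of the 34 tested cytokine and chemokine genes on the 6 CKO arrays (orange Teff, blue Treg, marker shape by replicate), with the dotted line at the highest array median. Ccl9, Il5, Il13, Il6 and Il4 are high on CKO Teff 1 and 2 and far lower on CKO Teff 3, whereas Il17a, Il17f, Csf2 and Il2 are high on all 3 Teff arrays.

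The type 2 cytokines were less even over the Teff arrays, and none was called. Il13 read 9.68, 10.65 and 7.68 on CKO Teff and 5.37, 6.51 and 5.46 on CKO Treg (-3.56 ± 0.83, adjusted p = 0.114, and -1.90 without CKO Teff 1 and 2). Il5 read 9.69, 11.89 and 7.10 against 5.33, 5.70 and 6.00 (-3.88 ± 1.05, adjusted p = 0.166, and -1.43 without those arrays). Il4 read 14.42, 14.04 and 9.98 against 10.32, 10.64 and 8.86 (-2.87 ± 1.04, adjusted p = 0.331), and without those arrays its difference was -0.04. In each the values of CKO Teff 1 and 2 were the highest, as for the basophil genes, whose part in the result was not tested. Ccl9 (-4.38 ± 1.04, adjusted p = 0.114) and Ccl3 (-2.31 ± 0.56, adjusted p = 0.12) were also highest on CKO Teff 1 and 2, and without these their differences were -1.59 and -1.22.

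Cytotoxic granule genes and other groups were described by the same counts. Over all genes limma called 0.173% higher and 0.182% lower in CKO. There 10.8% had an unadjusted p under 0.05, and 55.7% were higher. Of 10 tested cytotoxic genes 8 were lower, with a median of -1.61 and -1.05 without CKO Teff 1 and 2, and Gzmm was called. Nkg7 (-1.81 ± 0.35, adjusted p = 0.0618) and Ctsw (-1.41 ± 0.25, adjusted p = 0.0513) were lower on every Treg array. Homing receptors had a median of 0.36, 10 of 15 higher, with Itgae called. Ccr4, a skin and tissue homing receptor, read 4.70 to 4.94 on CKO Teff and 5.67 to 6.05 on CKO Treg (1.01 ± 0.19, adjusted p = 0.0595), and Ccr6, the receptor for Ccl20, differed by 2.51 ± 0.71 (adjusted p = 0.182, and 1.54 without CKO Teff 1 and 2). T cell receptor signalling genes had a median of -0.02 over 17 genes (-0.05 without CKO Teff 1 and 2), of which 7 were higher and limma called 0, with 3 at an unadjusted p under 0.05. Cd28, the costimulatory receptor, had the smallest p of these (1.39 ± 0.26, adjusted p = 0.0513). Glycolysis genes were higher in 14 of 17, with a median of 0.35, limma calling 0 and 6 having an unadjusted p under 0.05, and the median was 0.06 without CKO Teff 1 and 2. Pkm read 11.89 to 12.12 on CKO Teff and 12.55 to 12.59 on CKO Treg (0.58 ± 0.11, adjusted p = 0.0513). Hif1a, which drives glycolytic genes, read 7.95, 7.63 and 7.59 on CKO Teff and 8.52, 8.33 and 8.37 on CKO Treg (0.68 ± 0.16, adjusted p = 0.112). In Ctrl the Hif1a difference was -0.52, and the adjusted p of the difference was 0.519.

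What persisted was counted across all genes called in Ctrl, whose arrays are not among the 6 CKO arrays, although hosts and the estimate of spread are shared. Same-numbered CKO and Ctrl arrays also deviated together within each cell type (r 0.348 to 0.737). That favours agreement between the contrasts in sign, overlap and correlation, by an amount that was not tested. In Ctrl 73 genes were higher in Treg cells (0.602%) and 50 lower (0.413%). Of the 73, 68 were also higher in CKO Treg cells and 55 (75.3%) did not overlap there, where 8.15% of all genes did not overlap in that direction. Their median was 1.30 in Ctrl and 0.86 in CKO. Of the 50, 49 were also lower in CKO Treg cells and 44 (88%) did not overlap, where 5.58% of all genes did so in that direction. Their median size was 1.57 in Ctrl and 1.01 in CKO. A gene called in Ctrl tends to have a large Ctrl value by that choice, so the smaller CKO medians carry no test. Past the threshold in both were 29 genes, 16 higher and 13 lower, 67.4% of the CKO calls and 23.6% of the Ctrl calls. For 28 of the 29, Gzmm excepted, the 95% interval of the difference between genotypes held 0 in the fit without pairs. The 29 were chosen for a call of the same sign in both contrasts, which favours small differences between genotypes. Intervals were also wide, as -2.55 to 0.78 for Itgae and -1.29 to 1.23 for Foxp3. An interval that holds 0 therefore does not show equal differences. With same-numbered CKO and Ctrl arrays as pairs 24 of the 29 had an unadjusted p of the difference of at least 0.05, the other 5 being Itgae (0.0265), Mt1 (0.0465), Dusp2 (0.0447), Gzmm (0.0043) and Jaml (0.0217). By sign, all 21 genes called higher in CKO were higher in Ctrl, with medians of 1.31 and 1.42. Of the 22 called lower, 21 were lower in Ctrl, with median sizes of 1.69 and 1.36. By call, 14 of the 43 CKO genes did not pass in Ctrl. For some of these the 95% interval of the difference between genotypes did not hold 0, without pairs, though its test passed for none. Nid2, Tnfsf4, Tcf4 and Armcx2 were among them, with Ctrl differences of 0.55, -0.33, -0.24 and -0.56. Across the 12119 genes, which are not independent replicates, the contrasts correlated with Pearson r = 0.557.

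**Figure D5:**
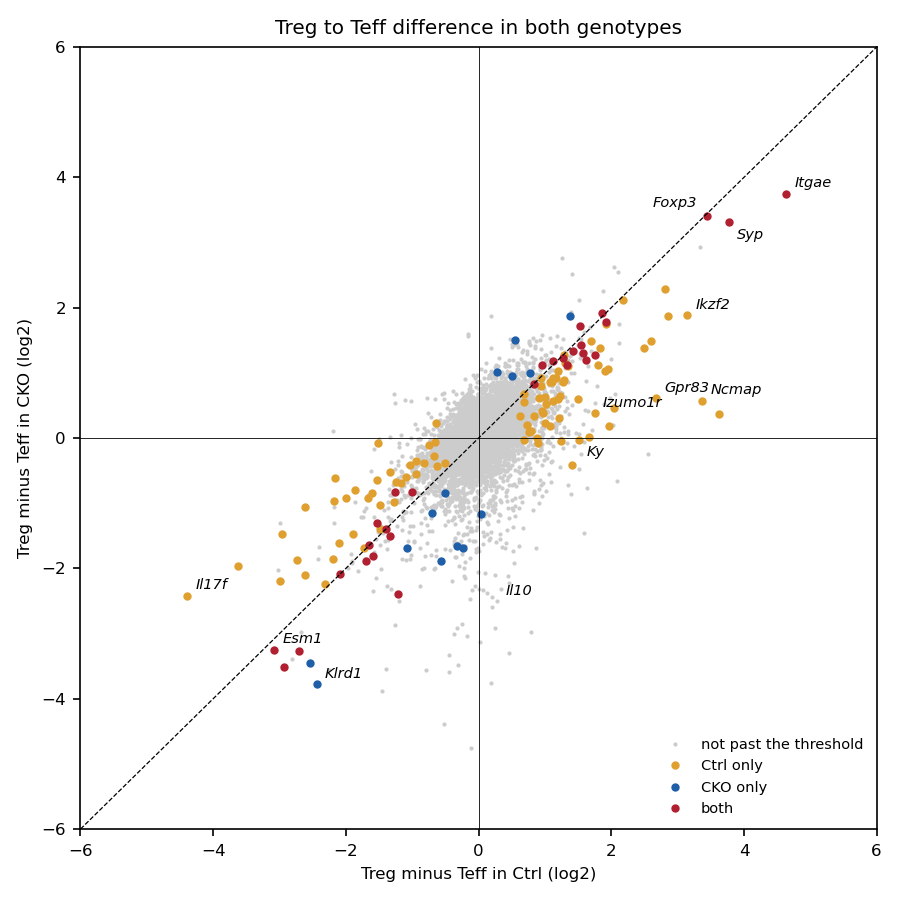
Treg minus Teff (log2) in Ctrl (horizontal) and CKO (vertical) for all 12119 genes, coloured by the contrast in which each passed the threshold, with a dashed line of equal values. Foxp3 and Syp lie near the line, and Itgae lies under it (3.75 in CKO, 4.64 in Ctrl). Gpr83, Ncmap and Izumo1r have small positive CKO values (0.61, 0.57 and 0.39), Ky lies near a CKO value of 0, and Il10 has a negative one (-2.51).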

How the data were processed

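Log2 values per Illumina probe were used as the authors deposited them for 12 arrays of 4 groups, 3 arrays each. GenomeStudio and limma 3.30.11 stand in the submitters' processing notes; background correction and normalization: not given in the sources used here. Of 31641 probes, 28197 carried 1 gene symbol in the platform annotation, 5 several and 3439 none. Probes above the array median on at least 3 of 12 arrays were kept (17579 with 1 symbol), and the probe with the highest mean stood for a gene. Groups were fitted with limma 3.58.1 (lmFit and eBayes, R 4.3.3, version 1.17.8 of data.table, statmod 1.5.0) over all 12 arrays, two-sided, with Benjamini-Hochberg adjustment over 12119 genes and a threshold of 0.05. Errors are moderated SEs, and intervals 95%. The procedure was tested on simulated data.

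The comparison and the 31 gene lists (442 of 561 places tested) were chosen with earlier results of these data known. Named were Prdm1, Foxp3, the 15 largest rises and falls called in CKO, the 5 largest in Ctrl, the 5 smallest p in each direction of the difference, and, of the 10 or 5 members of each list with the smallest p, those described here; exceptions are said to be so. Deviations from group means correlated between same-numbered CKO and Ctrl arrays (0.348 to 0.737), so these numbers were taken as pairs in an alternative fit of the difference; the fit reported first, and its intervals, had no pairs. Alternatives changed the filter, the scaling, the probe summary, the fit and the arrays. Figures were drawn with Python 3.11.15 and matplotlib 3.10.9.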

Additional observations from a re-analysis of the deposited data

Results flagged for a closer look

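The test of the difference between the CKO and Ctrl contrasts, CKO minus Ctrl, picked out Gpr83 (-2.07) and Ky (-1.54). With same-numbered CKO and Ctrl arrays as pairs it picked out Ecm1 (-2.00), Il10 (-2.78), Ncmap (-2.79) and Pdlim1 (1.69), besides Ky. Ky passed the filter on low signal only through the Ctrl Treg arrays. Ecm1, an extracellular matrix protein, read 8.07, 7.40 and 6.64 on CKO Teff, 6.75, 7.37 and 6.54 on CKO Treg, 6.83 to 7.54 on Ctrl Teff and 8.22 to 9.26 on Ctrl Treg, so it stood apart in Ctrl Treg cells. Pdlim1, which binds the actin cytoskeleton, read 10.90, 11.12 and 10.75 on CKO Treg and 8.61, 9.01 and 8.30 on Ctrl Treg, with 9.80 to 11.04 on CKO Teff and 9.27 to 10.66 on Ctrl Teff.

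Among 1813 kept probes without a gene symbol, which the comparison did not use, 7 passed the threshold between CKO Treg and Teff cells, 5 higher and 2 lower.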

How the results depend on the processing

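All 43 CKO calls kept their sign under each alternative in which they were tested, but their number moved. It was 82 (41 higher, 41 lower) with a filter at the 75th percentile, 86 (39, 47) with trended robust variances, 245 (121, 124) with array weights and 4 (2, 2) with only the 6 arrays compared; testing every probe gave 33 higher. Omitting 1 array gave 16 to 259, 9 to 113 higher and 7 to 146 lower; omitting CKO Teff 1 and 2, an alternative chosen after seeing the data, gave 0. Treg and Teff arrays of one number did not all deviate together (r 0.0413 to 0.325 in CKO, -0.266 to 0.265 in Ctrl), so they were not paired. With the replicate block within genotype 20 genes passed (9, 11), and with a random replicate block 125 (66, 59). The Ctrl count of 123 became 247 (144, 103) with array weights, 29 (17, 12) with its 6 arrays only, 187 with the random block (82 lower), and 44 to 135 on omission of 1 array (28 to 77, 16 to 58). The difference count of 2 became 0 with the 75th percentile filter (170 at unadjusted p under 0.05 in limma), 4 with trended variances, 0 with the block within genotype (561), 5 (1 higher, 4 lower) with the block within cell type, 0 without CKO Teff 1 and 2 (453), and 0 to 22 on omission of 1 array (309 to 819), 22 being without CKO Teff 3; 0 were higher in any of these omissions. The 29 genes called in both became 49, 47, 89, 2, 15 and 65 with the 75th percentile filter, trended variances, array weights, 6 arrays, the block and the random block, 0 without CKO Teff 1 and 2, and 10 to 63 on omission of 1 array; the share of Ctrl calls of the same sign in CKO ran from 88.3% to 98%. Arrays give no read depth. Genes near the array medians have no measured level, so their folds understate a change, and 3 arrays a group limit the precision.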

Other observations

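Stress and growth genes held no call in CKO. All 15 tested genes of the unfolded protein response and secretory pathway were lower in CKO Treg cells, with a median of -0.32, and -0.61 without CKO Teff 1 and 2; limma called 0 and 2 had an unadjusted p under 0.05. Ddit3, a factor of stress-induced death, differed by -0.70 and Dnajb9, a chaperone of the endoplasmic reticulum, by -0.71, and without CKO Teff 1 and 2 by -0.38 and -0.09. All 19 cell cycle genes were higher, with a median of 0.39, limma called 0 and 0 had an unadjusted p under 0.05. Over all genes 55.7% were higher, limma called 0.355%, and 10.8% had an unadjusted p under 0.05. With so few calls among all genes, 0 calls sets neither list apart. Mcm6, part of the replicative helicase, read 9.52, 8.93 and 9.12 on CKO Teff and 9.68, 9.25 and 9.80 on CKO Treg, which overlap. The median of the cell cycle list was -0.14 without CKO Teff 1 and 2, on the other side of 0. The mean of this list was 7.78 on CKO Teff 3 and 8.22 on CKO Treg 3, above the 6.47 to 7.15 of the other 4 CKO arrays.

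Interferon response genes were lower in 15 of 17 with a median of -0.35, and 0.07 without CKO Teff 1 and 2. Isg15, a ubiquitin-like interferon product, read 8.36, 11.65 and 9.09 on CKO Teff and 9.24, 7.97 and 7.90 on CKO Treg, so CKO Teff 2 stood apart. The list mean was 7.40 on CKO Teff 2 and 7.09 on Ctrl Teff 2, against 5.41 to 6.39 on the other 10 arrays. The naive T cell gene Foxp1 read 7.98, 7.37 and 8.51 on CKO Teff and 5.75, 6.62 and 6.34 on CKO Treg (-1.71 ± 0.34, adjusted p = 0.063), with a difference of -0.43 in Ctrl. Its list of naive and memory genes was split: of 8 tested, 3 were higher and 5 lower, with 2 each way at an unadjusted p under 0.05. Limma called 0 in that list, and its median was -0.51, and 0.11 without CKO Teff 1 and 2. Tgfbr1, a receptor of TGF-beta, was higher on every CKO Treg array, at 9.32 to 10.33 against 8.06 to 8.76 on CKO Teff (1.49 ± 0.32, adjusted p = 0.0846), and by 1.70 in Ctrl. Of the 11 tested TGF-beta pathway genes 5 were higher and 6 lower, with 3 each way at an unadjusted p under 0.05. Limma called 0 of them, and their median was -0.09. Immediate early genes, switched on soon after stimulation, were lower in 17 of 19 with a median of -0.60, Dusp2 being called, and had a median of 0.36 without CKO Teff 1 and 2. Survival and death genes had a median of -0.25, with 6 of 13 higher and 5 at an unadjusted p under 0.05, all lower; limma called 0, and the median was 0.01 without CKO Teff 1 and 2. Medians were -0.57 over 11 Th1 genes, -0.14 over 9 Th2 genes, 0.07 over 15 Th17 genes and 0.11 over 7 follicular helper genes, and limma called 0 in these 4 lists. The numbers of their genes at an unadjusted p under 0.05 were 4, 5, 8 and 2, where 10.8% of all genes reached it and limma called 0.355%. Without CKO Teff 1 and 2 the medians were 0.07 for Th1, -0.01 for Th2, -0.02 for Th17 and -0.12 for follicular helper genes, so all but the Th2 median changed sign. Bcl6, the follicular helper factor that Blimp1 opposes, differed by -0.92 in CKO and by -2.00 in Ctrl, with an interval of the difference of 0.30 to 1.86 and an adjusted p of 1.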
